A study of Mus musculus with 36 samples.

Results

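The genes described here are 10 that encode basic leucine zipper (bZIP) transcription factors of the AP-1 and CREB families, namely Fos, Fosb, Fosl2, Jun, Junb, Jund, Batf, Atf3, Crem and Maff. They were chosen by gene symbol, and every probe annotated with one of these symbols was taken. Of the 10 genes, 9 have a probe in the annotation used, 14 probes of 25697 in all, and all 9 were among the 7585 genes tested. Fosl2 is not analysed here. RNA came from T cells of mice listed under B6.C-Tg(CMV-cre)1Cgn/J, named for a Cre recombinase gene driven by the CMV promoter, and was read on Illumina bead arrays. The 3 genotypes were Malt1+/- (called het), Malt1PM/- (PM, a point-mutated allele over the deleted one) and Malt1-/- (KO), so at least 1 deleted Malt1 allele was present in every sample, controls included, and no group carried a pair of wild-type alleles. Each genotype was measured without stimulation (0 h) and after 1 h and 4 h of stimulation, with 4 arrays in each of the 9 groups and 36 in all. The labels describe more than 1 way of preparing the cells (depletion of B and myeloid cells with beads, or CD4+ isolation kits) and of stimulating them (PMA with ionomycin, or antibodies to CD3 and CD28 on the plate), and do not say which was used for these arrays. Ages are not given. The labels number 4 replicates a group where the series' design mentions 3, and separate mice are stated for neither, so p-values measure the spread between these samples.

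AP-1 is a pair of bZIP proteins, usually a FOS family member bound to a JUN family member, that sits on the TRE sequence of gene promoters and enhancers. CREB family proteins bind the related cyclic AMP response element (CRE), and small MAF proteins pair with FOS and with other bZIP proteins at longer sites. In T cells the antigen receptor switches on several of these genes within minutes through MAP kinases and calcium, without new protein synthesis, and AP-1 then works with NFAT and NF-kB at cytokine genes. MALT1 is a scaffold and a protease (a paracaspase) that links the antigen receptor to NF-kB.

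Sequences are shown for genes that rose at 1 h in every genotype and hold a CRE-type sequence, so the motif was part of the choice. Jund also rose and held none of the motifs searched. The 250 bases before the annotated start of transcription are printed. They come from RefSeq (build GRCm38.p6), run 5′ to 3′ on the strand of the gene, and carry in capitals the CRE core (TGACG, which reads CGTCA where it lies on the other strand), the full CRE (TGACGTCA, which holds a core on each strand) and the NF-kB (kappaB) motif. Of the 9 genes measured, 8 had an entry; Crem is named only. For Maff the second of 3 annotated starts is shown.
Fos (chr12:85473640-85473889, plus strand): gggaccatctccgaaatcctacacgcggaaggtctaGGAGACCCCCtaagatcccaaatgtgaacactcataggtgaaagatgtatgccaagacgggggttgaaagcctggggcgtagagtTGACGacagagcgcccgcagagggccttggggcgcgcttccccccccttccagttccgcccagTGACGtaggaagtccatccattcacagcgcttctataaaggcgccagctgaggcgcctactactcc
Fosb (chr7:19310046-19310295, minus strand): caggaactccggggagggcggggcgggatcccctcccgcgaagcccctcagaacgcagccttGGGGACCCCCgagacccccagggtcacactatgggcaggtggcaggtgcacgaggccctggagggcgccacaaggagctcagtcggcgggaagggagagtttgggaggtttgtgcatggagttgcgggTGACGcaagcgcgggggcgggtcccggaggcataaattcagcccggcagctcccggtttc
Junb (chr8:84978749-84978998, minus strand): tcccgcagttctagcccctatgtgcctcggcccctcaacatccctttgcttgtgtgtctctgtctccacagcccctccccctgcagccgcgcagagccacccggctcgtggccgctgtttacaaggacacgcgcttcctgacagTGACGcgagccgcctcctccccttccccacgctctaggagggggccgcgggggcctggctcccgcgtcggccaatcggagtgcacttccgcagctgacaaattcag
Atf3 (chr1:191183334-191183583, minus strand): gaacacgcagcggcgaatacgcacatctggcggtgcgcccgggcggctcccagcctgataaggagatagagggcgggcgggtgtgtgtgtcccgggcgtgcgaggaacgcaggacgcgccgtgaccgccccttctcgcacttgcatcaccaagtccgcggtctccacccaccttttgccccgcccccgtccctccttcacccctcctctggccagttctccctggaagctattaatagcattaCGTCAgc
Maff (chr15:79347270-79347519, plus strand): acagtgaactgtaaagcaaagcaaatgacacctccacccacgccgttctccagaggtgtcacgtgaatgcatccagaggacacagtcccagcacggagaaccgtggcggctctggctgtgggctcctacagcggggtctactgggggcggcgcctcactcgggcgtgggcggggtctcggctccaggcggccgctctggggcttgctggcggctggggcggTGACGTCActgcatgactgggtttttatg

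A CRE core began at -129 and -66 from the start of Fos, at -60 in Fosb, -106 in Junb, -98 in Batf and, on the other strand, at -7 in Atf3. In Maff a full CRE began at -29 from the second start and a core at -122 from the third. Both strands of every annotated mouse promoter of the same length were searched in the same way. Of 32851 promoters 17.8% held a core, 1.55% a full CRE and 3.90% a kappaB motif. The kappaB motif occurred before Fos (at -214) and Fosb (at -188) and before the third start of Maff, on the minus strand of the gene in each case. The TRE (TGANTCA, in 6.75% of promoters) and the serum response element (in 1.47%) were found in none of the windows of the 8 genes, and no motif searched was found before Jun or Jund. Sequence further upstream was not searched, so an absence holds for these windows alone. A match is a run of letters, not evidence of binding.

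Each array detected 7713 to 10291 of the 25697 probes; precision is limited by how many arrays there are. The Malt1 probe read 6.08 ± 0.35 (log2 signal, SD, n = 4) in het, 5.21 ± 0.37 in PM and 4.79 ± 0.29 in KO cells at 0 h, where 2 of 4 KO arrays detected it. At 4 h it read 7.29 ± 0.26, 6.10 ± 0.33 and 5.82 ± 0.32 and was detected on every array. In KO it was thus 1.03 higher at 4 h than at 0 h (adjusted p = 0.000349), and at 4 h it was 1.47 lower than in het (adjusted p = 3.55e-05) and did not pass between PM and KO (0.28, adjusted p = 0.801). Whether it lies in the deleted part is not given in the sources used here. The T cell markers Cd3d, Cd3e, Cd3g, Cd247, Cd2, Cd5 and Thy1 were detected on every array, as was Cd8b1, while Cd4 was detected on 30 of 36 arrays. Transcripts of other cells were present and were lower later: at 4 h against 0 h 5 of 6 tested myeloid markers passed as lower in each genotype, and 3, 3 and 4 of 5 B cell markers in het, PM and KO, as did 4 of 7 T cell markers. Of the other T cell markers 1 passed as higher in het, 2 in PM and 2 in KO. Of all genes 28.3%, 27.1% and 24% were lower in het, PM and KO, and 26.9%, 24% and 22.2% higher. The mean over the myeloid markers (6 of 9 listed, S100a8 and Lyz2 among them) ranged from 6.95 to 8.08 on the arrays at 0 h and from 5.17 to 6.52 at 4 h, and that of the B cell markers (5 of 7 listed) from 6.15 to 7.98 and from 4.72 to 5.96. Csf1r and Cd68 are not analysed here, and Itgam, Pax5, Alas2, Ncr1, Klrb1c and Cd8a were not detected on any array. None of the B cell or myeloid markers passed between genotypes at any time. Of the 7 T cell markers, 1 was higher in PM than in het at 4 h, where 2.83% of all genes passed in either direction. In KO against het at 4 h 4 were higher and 1 lower (8.74% of all genes passed). In PM against KO at 4 h 3 were lower (2.81%). The part of these markers in the results below was not tested. In such bulk samples fewer cells of a type and less RNA per cell cannot be told apart.

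Arrays that share a replicate number tended to deviate together, and 2 sets of 3 stood apart by at least 1 log2 unit in genes described here. At 0 h the arrays of replicate 3 were the highest of the 4 by at least 1 log2 unit in all 3 genotypes for Fos, Fosb, Jun and Junb. Only 7 of 7585 genes (0.0923%) did this, the others being Dusp1, Ppp1r15a and Tnfaip3, which were named after their values were seen. At 1 h the arrays of replicate 2 were the lowest in all 3 genotypes for Atf3, by at least 2.69, and for Crem. At any margin 1028 genes (13.6%) were so. By at least 1 log2 unit 14 genes (0.185%) were, Atf3 among them with the largest gap and Crem not. Values without replicate 3 at 0 h or replicate 2 at 1 h are given below for the genes in which they stood apart. These arrays were left out after their values were seen, so p-values without them describe the data and are not separate support. At 0 h the arrays of replicate 2 were the lowest in all 3 genotypes for Fos, Junb and Jun, by at least 0.92, 0.82 and 0.82. At any margin 831 genes (11%) were so, and by at least 1 log2 unit none. The gap of Fos was the largest of these over all genes tested, and those of Junb and Jun were among the largest. No fit left out replicate 2 at 0 h alone in every genotype. At 0 h replicate 3 lay within the other arrays in the mean of the T cell markers (11.26 to 11.43 against 10.68 to 11.63) and in probes detected (8816 to 9366 against 8324 to 10291). It reached past them at the top in the B cell mean (6.61 to 7.98 against 6.15 to 7.76) and the erythroid marker Hba-a1 (6.76 to 10.02 against 5.09 to 8.94), and at the bottom in the myeloid mean (6.95 to 8.06 against 7.37 to 8.08). At 1 h replicate 2 had more probes detected (9131 to 9845 against 7720 to 9113) and higher Cd4 (6.47 to 6.55 against 4.73 to 6.34), while the B cell mean reached below the others (6.06 to 6.39 against 6.28 to 7.68), as did Hba-a1 (4.88 to 5.71 against 5.16 to 9.47). The part of these differences in the results was not tested.

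**Figure D1:**
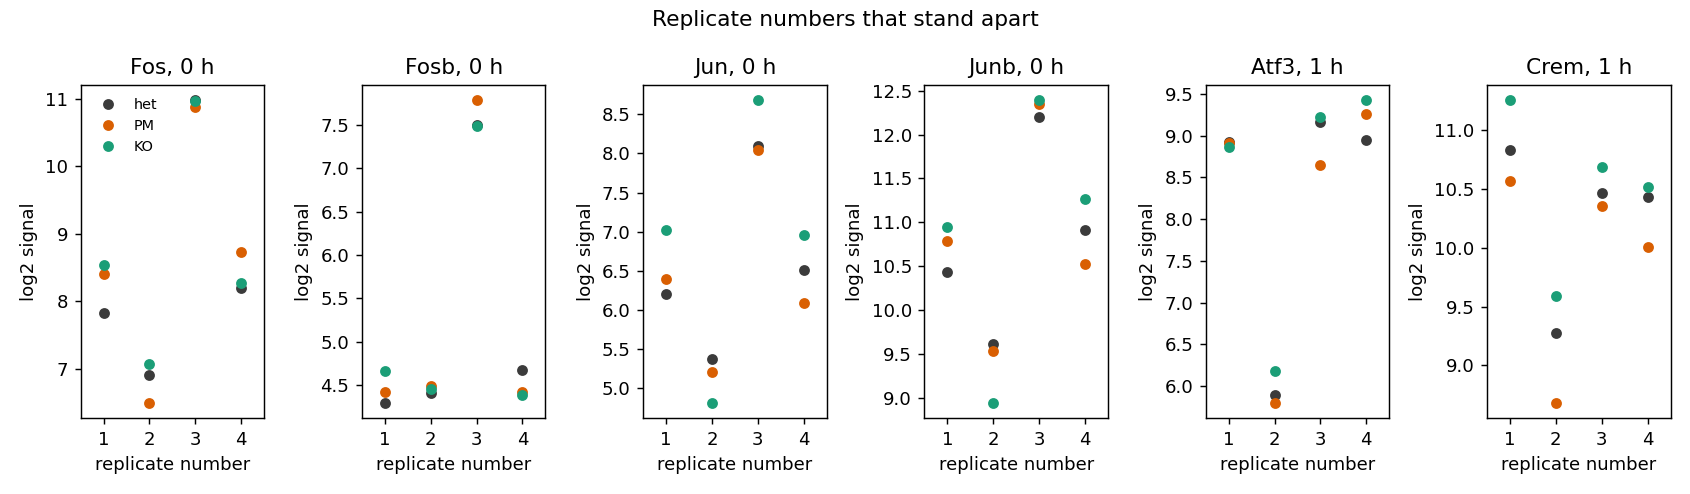
Log2 signal (vertical axis) against replicate number (horizontal axis) for Fos, Fosb, Jun and Junb at 0 h and for Atf3 and Crem at 1 h, 1 point per array, coloured by genotype. Replicate 3 is the highest of 4 at 0 h in all 3 genotypes for the first 4 genes, and replicate 2 is the lowest at 1 h for Atf3 and Crem.

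After 1 h of stimulation 7 of the 9 genes rose in each of the 3 genotypes: Fos, Fosb, Junb, Jund, Atf3, Crem and Maff. Of all 7585 genes 12.7% rose in het, 10.3% in PM and 12.4% in KO (limma, Benjamini-Hochberg adjusted p under 0.05 over all genes). The median difference over the 9 genes was 2.61 in het, 2.56 in PM and 2.30 in KO on the log2 scale, beside medians of -0.07, -0.08 and -0.07 over all genes. With Atf3 and Maff at their lower bounds it was 2.32, 2.20 and 2.17. Jun and Batf did not pass. Atf3 and Maff were detected at 1 h on every array and on none at 0 h, so they entered the test through the stimulated groups alone. Fosb was detected at 0 h on 1 array of each genotype, fewer than the 4 arrays that the filter asked. It too entered only because of the stimulated groups. These counts thus describe the list without supporting it.

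By 4 h the list had split. Atf3 and Crem remained above 0 h in all 3 genotypes and Jund was below it, while the other 6 did not pass against 0 h. Among all genes 26.9% were higher and 28.3% lower in het at 4 h, 24% and 27.1% in PM, and 22.2% and 24% in KO, so 3 of 9 is not more than the share over all genes. From 1 h to 4 h, 8 of 9 genes fell in het (27% of all genes fell), 5 in PM (24.2%) and 8 in KO (22.1%). In each genotype Fos, Fosb, Junb, Jund and Maff were among them. In het and KO, but not in PM, Atf3 and Crem also passed, and that difference between genotypes is tested further on.

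**Figure D2:**
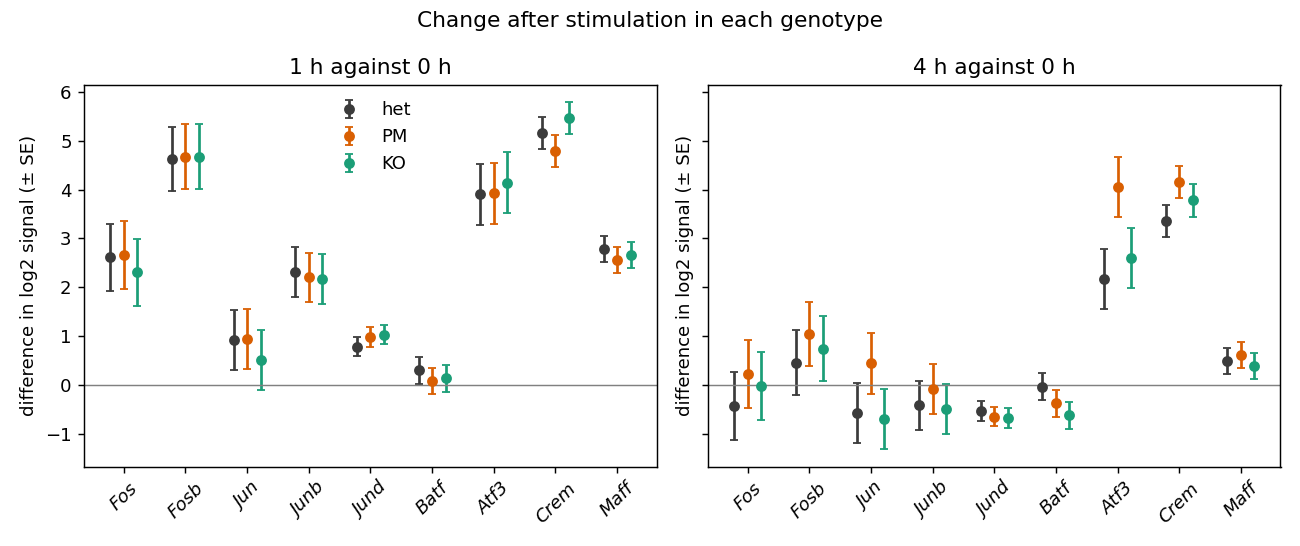
Difference in log2 signal from 0 h (vertical axis, bars are ± SE from the limma fit) for 9 genes (horizontal axis) in het, PM and KO cells, after 1 h on the left and 4 h on the right. All 9 means lie above 0 at 1 h, where Jun and Batf did not pass in any genotype; at 4 h Atf3 and Crem passed as higher and Jund as lower in every genotype. Atf3 and Maff were not above background at 0 h, so their plotted differences have no measured start.

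FOS proteins cannot pair with themselves and need a JUN partner to bind DNA. Fos, the founding member, read 7.83, 6.91, 10.98 and 8.20 (log2 signal, replicates 1 to 4) in het cells at 0 h, 10.47, 11.45, 11.19 and 11.26 at 1 h and 7.81, 8.42, 8.05 and 7.93 at 4 h. All of the 1 h arrays were above the 4 h arrays, and at 0 h replicate 3 lay within the range of the 1 h arrays. In PM it went from 8.41, 6.49, 10.89 and 8.73 to 11.21, 11.38, 11.15 and 11.43, and then to 9.31, 9.32, 8.57 and 8.21. In PM the groups at 0 h and 1 h do not overlap, with replicate 3 of 0 h just below the lowest 1 h array. In KO the values were 8.54, 7.07, 10.96 and 8.27 at 0 h, 11.13, 11.46, 10.89 and 10.58 at 1 h and 9.10, 9.10, 8.58 and 8.0 at 4 h. With all arrays Fos rose 6.11-fold in het (adjusted p = 0.00441), 6.33-fold in PM (adjusted p = 0.00468) and 4.94-fold in KO (adjusted p = 0.0118) at 1 h. Without replicate 3 at 0 h the rise was 10.9-fold, 10.7-fold and 8.31-fold (adjusted p = 3e-07, 4.84e-07 and 2.5e-06). At 4 h it stood at 12.2%, 18.4% and 20% of the 1 h signal in het, PM and KO, and differed from 0 h by -0.43 (95% interval -1.84 to 0.98), 0.22 (-1.19 to 1.64) and -0.02 (-1.43 to 1.40). Without replicate 3 at 0 h these differences were 0.40, 0.98 and 0.73, so the sign turned in het and KO, and none passed (adjusted p = 0.44, 0.0536 and 0.161). The KO rise was lost without KO replicate 2 at 0 h (1.76 on the log2 scale, adjusted p = 0.0687), and without replicate 2 (1.61) or 4 (2.30) of every group. Without replicate 1 of every group the rise did not pass in het (2.60, adjusted p = 0.0582), PM (2.62, adjusted p = 0.0628) or KO (2.21, adjusted p = 0.109). The fall of Fos from 1 h to 4 h in PM was lost without replicate 4 of every group (-2.18, adjusted p = 0.051).

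Fosb, a close paralogue of Fos, was detected at 0 h on the arrays of replicate 3 alone. It read 4.29, 4.41, 7.50 and 4.67 in het at 0 h, 8.86, 10.03, 10.24 and 10.24 at 1 h, and 5.54, 5.58, 5.79 and 5.79 at 4 h. In PM the values were 4.43, 4.5, 7.78 and 4.42, then 9.26, 9.33, 10.74 and 10.47, then 6.42, 6.72, 5.80 and 6.37. The KO arrays read 4.66, 4.45, 7.49 and 4.38, then 9.42, 9.91, 9.96 and 10.36, then 6.57, 5.94, 6.33 and 5.12. Every 1 h array was above every 0 h array of its genotype, replicate 3 included. The rise at 1 h was 24.7-fold in het (adjusted p = 2.27e-06), 25.4-fold in PM (adjusted p = 2.89e-06) and 25.4-fold in KO (adjusted p = 2.2e-06), against 0 h groups in which 1 of 4 arrays measured it. Without replicate 3 no 0 h array measured it, and the rise was at least 32.6-fold, 34.5-fold and 34.4-fold. By 4 h the signal was at 5.56%, 8.12% and 6.60% of that at 1 h. Against 0 h the 4 h values did not pass in het (0.45, adjusted p = 0.59), PM (1.05, adjusted p = 0.196) or KO (0.75, adjusted p = 0.389). Without replicate 3 at 0 h they passed as higher in het (at least 1.81-fold, adjusted p = 0.00354), PM (at least 2.80-fold, adjusted p = 3.82e-05) and KO (at least 2.27-fold, adjusted p = 0.000706). Leaving out PM replicate 3 at 0 h alone gave an adjusted p of 0.0111 in PM. Replicate 3 was left out because its high 0 h values had been seen, Fosb among them. These p-values thus do not support a rise at 4 h.

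JUN proteins are the partners of FOS and can also pair with each other. Jun itself, a strong activator, read 6.20, 5.38, 8.09 and 6.51 in het at 0 h, 6.42, 8.56, 7.54 and 7.37 at 1 h and 6.22, 5.04, 6.28 and 6.36 at 4 h. In PM it read 6.40, 5.20, 8.04 and 6.09, then 6.23, 7.91, 7.62 and 7.77, then 7.51, 6.14, 6.49 and 7.38, and in KO 7.03, 4.81, 8.68 and 6.95, then 6.75, 8.01, 7.36 and 7.44, then 6.50, 5.52, 6.34 and 6.35. Replicate 2 is the lowest and replicate 3 the highest at 0 h in each genotype, and the groups at 0 h and 1 h overlap. The difference at 1 h was 0.93 in het (95% interval -0.33 to 2.18, adjusted p = 0.289), 0.95 in PM (-0.31 to 2.21, adjusted p = 0.301) and 0.52 in KO (-0.74 to 1.78, adjusted p = 0.585). Without replicate 3 at 0 h it was 1.44 in het (adjusted p = 0.04) and 1.48 in PM (adjusted p = 0.0412), and it did not pass in KO (1.12, adjusted p = 0.12). Here too the high 0 h values had been seen first, so these p-values are not separate support. Between 1 h and 4 h Jun fell by 1.5 in het (adjusted p = 0.0414), with no overlap of the arrays. That call was lost in 8 of 12 fits that left out 1 array or 1 replicate number, those without replicate 2, 3 or 4 of het at 1 h (-1.13, -1.47, -1.53), without replicate 1, 2 or 3 at 4 h (-1.58, -1.18, -1.60) and without replicate 2 or 4 of every group (-0.82, -1.66). The step was -0.50 in PM (adjusted p = 0.542) and -1.21 in KO (adjusted p = 0.113).

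Junb, a JUN protein that is weaker as an activator and prominent in helper T cells, was bright at all times. In het it read 10.43, 9.61, 12.20 and 10.91 at 0 h, 12.91, 12.93, 13.43 and 13.14 at 1 h and 10.23, 9.82, 10.66 and 10.79 at 4 h. The PM arrays read 10.79, 9.53, 12.35 and 10.53, then 12.63, 12.61, 13.51 and 13.25, then 10.79, 10.40, 10.72 and 10.97, and the KO arrays 10.94, 8.94, 12.39 and 11.27, then 12.91, 12.77, 13.32 and 13.22, then 10.37, 10.05, 10.84 and 10.33. Every 1 h array was above every 0 h array of its genotype. Junb rose 4.98-fold in het (adjusted p = 0.00073), 4.61-fold in PM (adjusted p = 0.00155) and 4.5-fold in KO (adjusted p = 0.00148). Without replicate 3, the highest at 0 h, the rise was 6.90-fold, 6.60-fold and 6.38-fold. Fits that left out 1 array or 1 replicate number gave log2 rises of 1.92 to 2.79 in het. In PM they gave 1.78 to 2.72 and in KO 1.52 to 2.67, and all of these passed. At 4 h Junb was at 15.1%, 20.5% and 15.9% of the 1 h signal. Against 0 h the 4 h difference was -0.41 in het (95% interval -1.45 to 0.62), -0.08 in PM (-1.11 to 0.96) and -0.49 in KO (-1.52 to 0.55). Without replicate 3 at 0 h it was 0.06, 0.44 and 0.02, of the opposite sign, and did not pass in any genotype (adjusted p from 0.38 to 0.981). Without KO replicate 2 at 0 h the KO difference was -1.14 and passed (adjusted p = 0.0457).

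Jund, the JUN gene known for steady expression in resting cells, moved least among the 7 that rose and ended below its start. Its het values were 5.47, 5.49, 6.22 and 6.0 at 0 h, 6.45, 6.47, 6.75 and 6.67 at 1 h and 5.35, 5.10, 5.34 and 5.30 at 4 h. In PM they ran from 5.24 to 6.28, from 6.32 to 7.26 and from 4.74 to 5.13, and in KO from 5.51 to 5.81, from 6.42 to 7.03 and from 4.71 to 5.11, so in each genotype the 3 times do not overlap. Jund rose 1.73-fold in het (adjusted p = 0.00297), 1.99-fold in PM (adjusted p = 0.000367) and 2.05-fold in KO (adjusted p = 0.000173) at 1 h. At 4 h it differed from 0 h by -0.52 in het (adjusted p = 0.0255), -0.64 in PM (adjusted p = 0.00722) and -0.67 in KO (adjusted p = 0.00593). The fall in het is carried in part by single arrays: it was -0.38 without replicate 3 at 0 h (adjusted p = 0.126), -0.46 without replicate 4 at 0 h (adjusted p = 0.0775) and -0.47 without replicate 2 at 4 h (adjusted p = 0.0709), and it was lost without replicate 2, 3 or 4 of every group (-0.57 to -0.41). In PM it was -0.42 without replicate 3 at 0 h (adjusted p = 0.0685). The probe is dim, undetected on 3 of the 4 h arrays, and with arrays scaled to a common median both its rise and its fall kept their direction and passed in no genotype.

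BATF lacks an activation domain, pairs with JUN proteins in place of FOS and works with IRF4 in T cells. Batf read 7.33, 7.06, 6.47 and 6.88 in het at 0 h, 7.17, 7.58, 7.40 and 6.81 at 1 h and 7.20, 6.77, 6.94 and 6.73 at 4 h. The PM arrays ran from 6.20 to 7.43, from 6.26 to 7.65 and from 6.38 to 7.04. These groups overlap at all times, and neither genotype passed in any comparison of times. In KO it read 6.47, 7.09, 7.04 and 6.86 at 0 h, 6.89, 7.48, 7.22 and 6.41 at 1 h and 6.62, 6.26, 5.94 and 6.16 at 4 h. The 4 h arrays of KO are low, with 3 of the 4 below every other KO array. Batf fell by 0.76 from 1 h to 4 h in KO (adjusted p = 0.024) and differed from 0 h by -0.62 (adjusted p = 0.064). The first call was lost in 6 of 12 fits that left out 1 array or 1 replicate number, among them those without KO replicate 2 (-0.60) or 3 (-0.68) at 1 h and 3 (-0.65) or 4 (-0.73) at 4 h, and the second passed without KO replicate 1 at 0 h (-0.75, adjusted p = 0.0384) or at 4 h (-0.74, adjusted p = 0.0403), and without replicate 1 of every group (-0.88, adjusted p = 0.0372). In PM the step from 1 h to 4 h was -0.46, and it passed without PM replicate 4 at 1 h (-0.72, adjusted p = 0.0301) or replicate 4 of every group (-0.65, adjusted p = 0.0389).

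ATF3 is a stress-induced member of the ATF/CREB family that represses as a pair with itself and can also pair with JUN proteins. Atf3 was not detected on any of the 12 arrays at 0 h, where its log2 signal ran from 4.19 to 4.47. In het it read 8.92, 5.89, 9.16 and 8.95 at 1 h and 6.09, 6.23, 6.85 and 6.84 at 4 h. In PM it read 8.91, 5.79, 8.65 and 9.26 at 1 h and 8.01, 7.64, 8.54 and 8.98 at 4 h. In KO it read 8.87, 6.17, 9.22 and 9.43 at 1 h and 6.61, 6.62, 7.13 and 7.18 at 4 h. Replicate 2 is low at 1 h in every genotype, and at 4 h the PM arrays lie above all het and KO arrays. Because the 0 h arrays give only a bound, the rise is at least 10.8-fold in het (adjusted p = 1.11e-05), 9.99-fold in PM (adjusted p = 1.37e-05) and 12.1-fold in KO (adjusted p = 4.59e-06) at 1 h. Without replicate 2 at 1 h the bounds are 18.5-fold, 17.2-fold and 20.3-fold. At 4 h it is at least 3.25-fold in het (adjusted p = 0.00326), 11-fold in PM (adjusted p = 1.54e-06) and 4.16-fold in KO (adjusted p = 0.000773). These bounds set the brighter mean against the lowest signal above background on each 0 h array, or the signal of the probe where that was higher. The step from 1 h to 4 h was -1.73 in het (adjusted p = 0.0188), 0.14 in PM (adjusted p = 0.882) and -1.54 in KO (adjusted p = 0.042). Without replicate 2 at 1 h in every genotype the step was -2.51 in het (adjusted p = 2.23e-10), -0.65 in PM, where it passed as a fall (adjusted p = 0.0195), and -2.29 in KO (adjusted p = 2.76e-09). The het step was lost without replicate 1 (-1.5), 3 (-1.42) or 4 (-1.49) of het at 1 h and without replicate 1, 3 or 4 of every group (-1.60 to -1.36), and the KO step in 10 of 12 such fits, those without replicate 1 (-1.39), 3 (-1.27) or 4 (-1.20) at 1 h, without any 1 array at 4 h (-1.64 to -1.44) and without replicate 1, 3 or 4 of every group (-1.35 to -1.30).

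Crem encodes activators and, from an internal promoter that cyclic AMP switches on, the repressor ICER, and the probes are not matched to isoforms here. The het arrays read 4.67, 4.93, 5.53 and 5.27 at 0 h, 10.84, 9.28, 10.46 and 10.43 at 1 h and 8.27, 8.73, 8.64 and 8.16 at 4 h. In PM they read 4.99, 4.96, 4.89 and 5.61, then 10.57, 8.68, 10.35 and 10.01, then 9.32, 9.54, 8.96 and 9.22, and in KO 5.23, 5.06, 5.0 and 4.95, then 11.26, 9.59, 10.69 and 10.52, then 8.97, 9.21, 8.76 and 8.41. The 3 times do not overlap in het and KO, and in PM the low replicate 2 of 1 h lies below the 4 h arrays. Crem rose 35.6-fold in het (adjusted p = 1.24e-13), 27.7-fold in PM (adjusted p = 9.39e-13) and 43.9-fold in KO (adjusted p = 4.67e-14) at 1 h. At 4 h it was still 10.2-fold, 17.7-fold and 13.7-fold above 0 h, with adjusted p-values of 2.5e-10, 3.7e-12 and 3.88e-11. The step from 1 h to 4 h was -1.80 in het (adjusted p = 2.29e-05), -0.64 in PM (adjusted p = 0.11) and -1.68 in KO (adjusted p = 8.91e-05). Without PM replicate 2 at 1 h the PM step was -1.05 and passed (adjusted p = 0.00513). Of the 5 Crem probes, 3 were detected and 2 were not on any array. The other 2 detected probes read 4.59 ± 0.24 and 4.47 ± 0.22 (SD, n = 4) in het at 0 h and 9.0 ± 0.55 and 8.39 ± 0.70 at 1 h, the same direction as the probe used.

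Maff encodes a small MAF protein, which has a DNA-binding zipper and no activation domain. It too was undetected on every array at 0 h, where it ran from 4.15 to 4.32. At 1 h the het arrays read 6.55, 7.46, 7.52 and 6.53, the PM arrays 6.27, 6.58, 7.83 and 6.50, and the KO arrays 6.39, 7.21, 7.31 and 6.79. By 4 h only 4 of 12 arrays detected it, with values from 4.24 to 5.34. The 1 h arrays thus lie above all others. Maff rose at least 4.64-fold in het (adjusted p = 1.06e-09), 3.89-fold in PM (adjusted p = 9.25e-09) and 4.28-fold in KO (adjusted p = 3.36e-09) at 1 h, and from 1 h to 4 h it fell by 2.30, 1.95 and 2.27 on the log2 scale, where 1 of 4 het arrays, 2 of 4 PM arrays and 1 of 4 KO arrays measured it at 4 h. At 4 h it was at least 1.01-fold above 0 h in PM, which did not pass (adjusted p = 0.0552), and passed without PM replicate 1 at 4 h (adjusted p = 0.0334) or without replicate 1 of every group (adjusted p = 0.0466). A second Maff probe was not detected on any array.

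**Figure D3:**
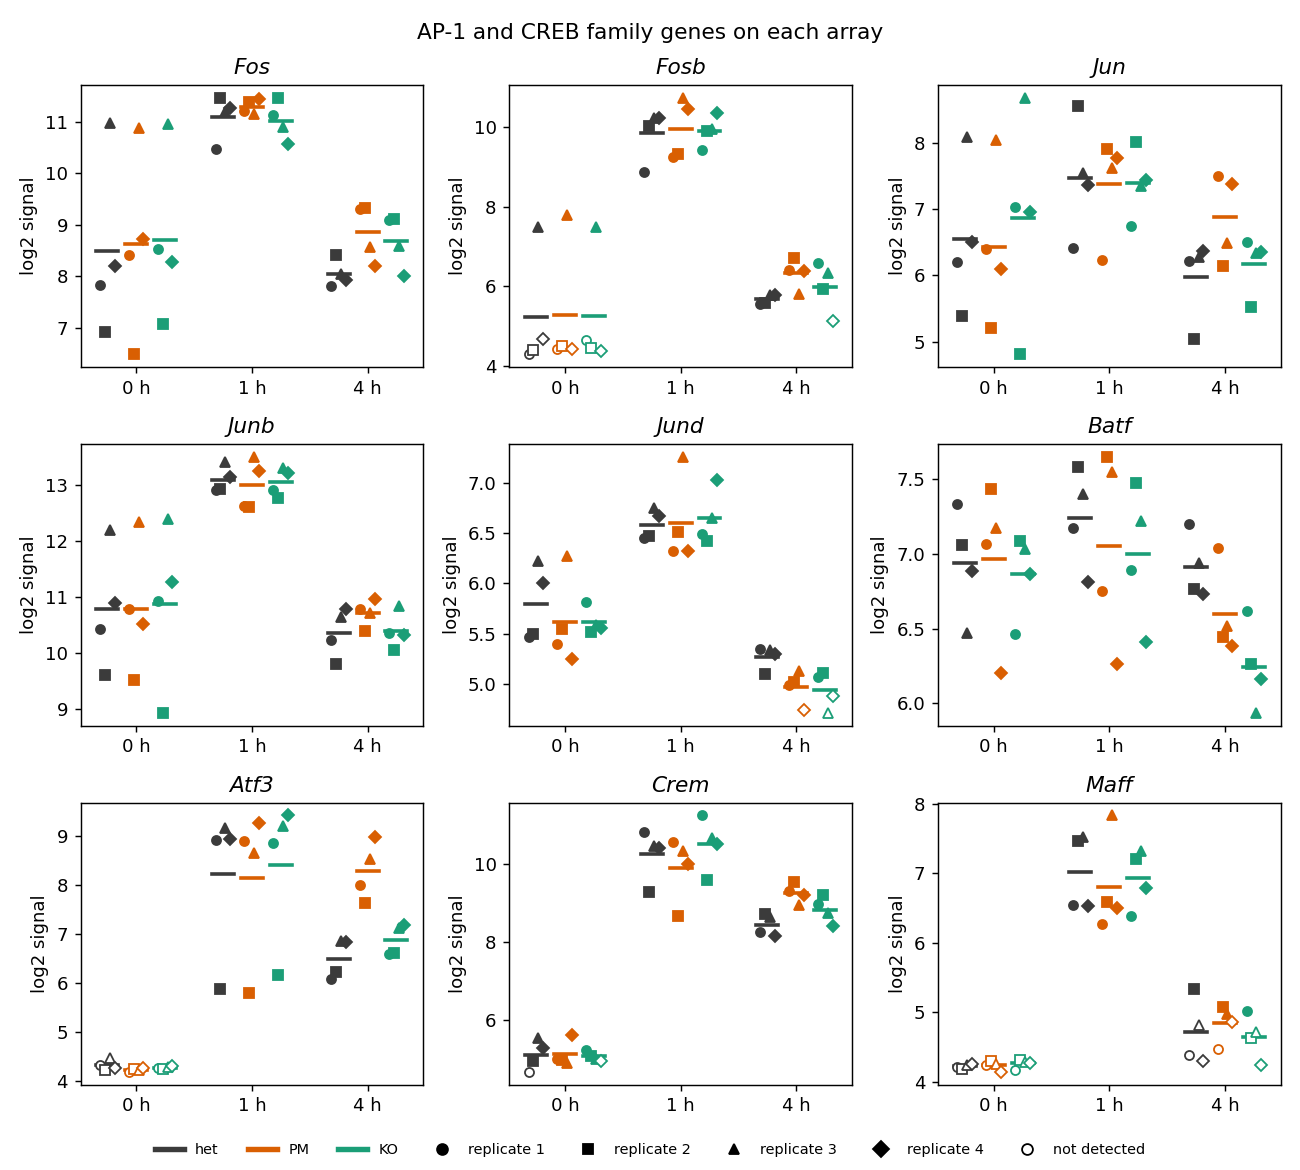
Log2 signal (vertical axis) of 9 genes at 0, 1 and 4 h (horizontal axis), 1 point per array, with colour for the genotype, shape for the replicate number, open points where the probe was not detected and a bar for the group mean. The group means of all 9 genes are higher at 1 h than at 0 h in every genotype, with overlapping arrays for Jun and Batf in each and for Fos in het and KO, and Atf3 at 4 h lies between 7.64 and 8.98 in PM against 6.09 to 6.85 in het.

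The levels of the 9 groups can be ordered gene by gene. In 26 of 27 pairs of a gene and a genotype the highest mean was at 1 h, the exception being Atf3 in PM, where 4 h (8.29 ± 0.59, SD, n = 4) and 1 h (8.16 ± 1.59) did not differ beyond their spread. At 1 h the means of the 3 genotypes lay within 0.61 of each other for every gene, less than the SD of at least 1 of the groups. Over the 9 group means, Atf3 and Crem followed each other (Pearson r 0.984), as did Fosb and Maff (r 0.9965) and Fos and Junb (r 0.986), whereas Batf and Crem did not (r 0.038). These correlations share arrays and the time course, so they are descriptions.

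Whether MALT1 or its protease bears on these genes is asked by the comparisons between genotypes, which share the het arrays. The Malt1 signal was also lower in PM than in het at 1 h and 4 h. The point mutation and a lower Malt1 signal cannot be told apart there. Before stimulation and at 1 h none of the 9 genes passed between genotypes. At 0 h the differences ran from -0.18 to 0.15 in PM against het and from -0.18 to 0.32 in KO against het, and at 1 h from -0.35 to 0.20 and from -0.24 to 0.26. Of all genes 0.0791% and 0.0527% passed at 0 h, and 0.211% and 0.0527% at 1 h. In the fit without a block none of the 9 reached an unadjusted p under 0.05 in these comparisons, nor in PM against KO at 0 h (0.0659% of all genes passed) or 1 h (0.0132%). For Fos at 1 h PM minus het was 0.20 (95% interval -1.21 to 1.61) and KO minus het -0.08 (-1.49 to 1.33). At 1 h the numbers are pairs by the rule used, and with a block for each number within each time, a fit added after the data were seen, these intervals were -0.22 to 0.62 and -0.49 to 0.34. None of the 9 passed at 1 h in that fit either, where 0.936%, 0.29% and 1.02% of all genes did in PM against het, KO against het and PM against KO. The lowest adjusted p was that of Crem in PM against KO (-0.61, lower in 4 of 4 replicate numbers, unadjusted p = 0.000869, adjusted p = 0.0677). Crem in PM against het (-0.35, unadjusted p = 0.0397, adjusted p = 0.458) and Atf3 in PM against KO (-0.27, unadjusted p = 0.0373, adjusted p = 0.464) were also under 0.05 before adjustment. Differences of the 1 h rise between genotypes did not pass for any gene on the array (0% in all 3 comparisons, with 44 to 68 genes at an unadjusted p under 0.05 and none of the 9 among them).

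At 4 h Atf3 stood higher in PM than in het cells. Each PM array was above each het array, and each was also above each KO array. The mean was 6.50 ± 0.40 in het, 8.29 ± 0.59 in PM and 6.88 ± 0.32 in KO (SD, n = 4). PM minus het was 1.79 (SE 0.62, unadjusted p = 0.00681), 3.45-fold, and did not pass over all genes (limma adjusted p = 0.151), where 2.83% of all genes did. Within replicate numbers the difference was 1.91, 1.41, 1.69 and 2.14. The arrays of the same number deviate together at 4 h, which makes them pairs by the rule used, and with the replicate number as a block Atf3 passed (adjusted p = 0.0183; 4.76% of all genes passed). With the block within each time the SE was 0.12 and the adjusted p 6.76e-10 (6.63% of all genes passed). It also passed without replicate 2 of every group (1.92, adjusted p = 2.91e-05). KO minus het was 0.38, at 0.51, 0.39, 0.28 and 0.35 within replicate numbers (adjusted p = 0.828, and 0.0283 with the block within each time, where 18.8% of all genes passed, and 0.483 with that block and arrays scaled to a common median).

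Crem, Fos, Jun and Fosb were also higher in PM than in het at 4 h, by less. Crem was 0.81 higher with no overlap of the arrays (1.05, 0.81, 0.33 and 1.06 within replicate numbers, adjusted p = 0.296, and 0.00158 with the block within each time). Fos was 0.80 higher (1.5, 0.90, 0.52 and 0.28, adjusted p = 0.866 and 0.0135) and Jun 0.90 higher (1.29, 1.10, 0.21 and 1.02, adjusted p = 0.757 and 0.00481). Fosb, 0.65 higher with no overlap, passed in neither fit. With arrays scaled to a common median the block within each time kept Atf3 (adjusted p = 1.2e-06) and Jun (adjusted p = 0.0226) and lost Crem (adjusted p = 0.086) and Fos (adjusted p = 0.273). Arrays did not overlap for 3 of the 9 genes, Fosb, Atf3 and Crem, all higher in PM, where 3.56% of all genes were so. Junb, Jund, Batf and Maff differed by 0.35, -0.30, -0.31 and 0.14 and passed in neither fit.

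In KO cells at 4 h Batf was lower than in het on every array. It read 6.24 ± 0.28 against 6.91 ± 0.21 (SD, n = 4). The difference was -0.67 (adjusted p = 0.142, 8.74% of all genes passed), and -0.58, -0.50, -1.01 and -0.57 within replicate numbers. It passed with the replicate number as a block (adjusted p = 0.0447, 15.2% of all genes) and with the block within each time (adjusted p = 0.0109, 18.8% of all genes). It did not pass with that block and arrays scaled to a common median (-0.73, adjusted p = 0.0708). Batf was 1 gene of 9 whose arrays were lower in KO without overlap, beside 5.64% of all genes, so this count says little about the list. Fos was 0.64 higher in KO (1.28, 0.69, 0.53 and 0.07 within replicate numbers, adjusted p = 0.699, 0.0269 with the block within each time, and 0.448 with that block and median scaling). PM against KO at 4 h gave 0.16 for Fos, 0.70 for Jun, 0.35 for Batf, 1.41 for Atf3 and 0.43 for Crem, none of which passed without a block (adjusted p from 0.345 to 0.999, 2.81% of all genes passed). With the block within each time 2 of the 9 passed (7.57% of all genes), though numbers were not pairs there by the rule used. Atf3 was the gene of the 9 whose arrays did not overlap there, with 3.01% of all genes higher in that way, and without replicate 2 of every group its difference was 1.54 and passed (adjusted p = 0.000254).

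**Figure D4:**
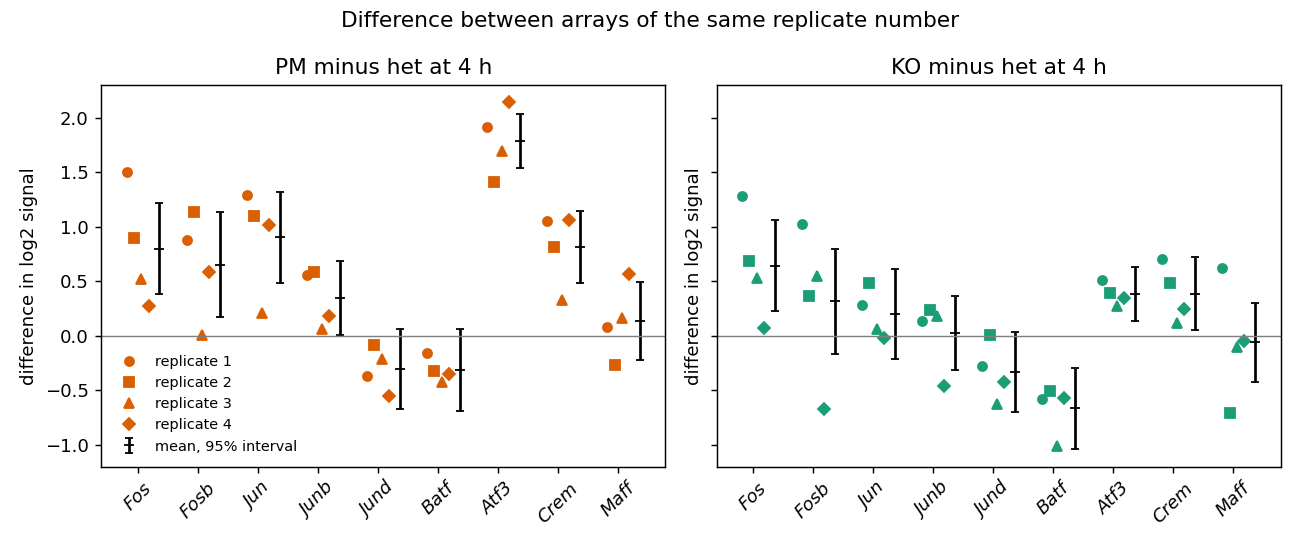
Difference in log2 signal at 4 h between arrays of the same replicate number (vertical axis), PM minus het on the left and KO minus het on the right, for 9 genes (horizontal axis). Points are the 4 replicate numbers. The black bar is the mean with its 95% interval from the fit with a block for each number within each time. For Atf3 in PM the interval runs from 1.54 to 2.04. Its width draws in part on the 0 h arrays, where Atf3 was background, and can be too narrow for 4 h.

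The change from 1 h to 4 h was compared between genotypes as well, which sets the 4 h difference against that at 1 h. For Atf3 the step in PM was 1.86 above that in het (1.93, 1.5, 2.20 and 1.83 within replicate numbers). It did not pass (unadjusted p = 0.0408, adjusted p = 0.87, 0.119% of all genes passed) and did with the block within each time (adjusted p = 3.81e-07, 1.24% of all genes), without replicate 2 of every group (1.98, adjusted p = 0.0089) and without replicate 2 at 1 h (1.86, adjusted p = 0.0115). For Crem the step in PM was 1.16 above that in het (1.32, 1.41, 0.44 and 1.48; adjusted p = 0.715, and 0.00815 with the block within each time). Crem was thus lower in PM than in het in 4 of 4 replicate numbers at 1 h (-0.35 on average) and higher in 4 of 4 at 4 h. In KO against het the step differed by 0.19 for Atf3 and 0.13 for Crem and passed in neither fit (1.54% of all genes passed). Without a block none of the 9 genes passed in the 4 h change from 0 h between KO and het (1.99% of all genes). None passed between PM and KO either, in that change (0.369%) or in the step (0.211%). With the block within each time, Atf3 and Jun passed in that change between PM and KO (1.73% of all genes). Atf3 and Crem passed in the step (1.46%). Numbers were not pairs by the rule used between PM and KO at 4 h. Without replicate 2 of every group Atf3 passed in both, at 1.60 (limma adjusted p = 0.0268) and 1.77 (adjusted p = 0.0107). The 4 h change from 0 h differed between PM and het by 1.88 for Atf3, whose 0 h readings are background in both, so that the measured part is the 4 h difference of 1.79 (unadjusted p = 0.0388, adjusted p = 0.853, 0.132% of all genes passed) and by at most 1.01 for the other 8 genes. With the block within each time the Atf3 value passed (adjusted p = 3.07e-07, 1.45% of all genes). Numbers were not pairs by the rule used between PM and het at 0 h, which this change draws on. The SE of Atf3 from that block again pools the 0 h arrays, where it was background. Without replicate 2 of every group the Atf3 value was 2.05 and passed (adjusted p = 0.0131).

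Genes that work beside these factors give the setting, from lists made with earlier results in view. Of 16 other AP-1 and CREB family genes and cofactors 10 were tested. None rose at 1 h in any genotype, where 12.7%, 10.3% and 12.4% of all genes rose in het, PM and KO. Only Creb1, a CREB activator, passed, as a fall in PM (-0.78, adjusted p = 0.0351) and KO (-0.74, adjusted p = 0.0405). Of all genes 15.5%, 13.1% and 15.7% fell in het, PM and KO. At 4 h 3 of 10 were higher in each genotype, near the 26.9%, 24% and 22.2% of all genes: Fosl1, a late FOS family gene not detected on any array of a group at 0 h (at least 2.03-fold in het, 1.29-fold in PM and 1.77-fold in KO), Crtc1, a CREB coactivator (0.84, 1.04 and 0.61), and Creb3l2, a membrane-bound member (0.67, 0.96 and 1.81). Creb3l2 was 1.11 higher in KO than in het at 4 h (adjusted p = 0.000461). Creb3 fell by 1.38 in het, 1.28 in PM and 1.04 in KO at 4 h, Creb1 by 0.82, 0.77 and 0.74, Crebl2 by 1.39 in het and Crtc3 by 0.50 in KO.

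Of 10 MAF, NFE2 and BACH genes, the partners of small MAF proteins, 5 were tested. Mafg, another small MAF gene, rose by 1.33 in het, 1.06 in PM and 1.28 in KO at 1 h and by 2.55, 2.32 and 2.00 at 4 h (adjusted p from 2.78e-11 to 9.11e-09 at 4 h), rising on while Maff fell back. Nfe2l1 was higher at 4 h in all 3 genotypes (1.04, 0.78 and 0.74). Nfe2 was lower at 4 h, where it was not well above background, by at least 1.06-fold in het, 1.12-fold in PM and 1.09-fold in KO. Of 16 stress, CEBP and PAR bZIP genes 10 were tested, of which 4, 3 and 4 rose at 1 h in het, PM and KO, beside 12.7%, 10.3% and 12.4% of all genes, and 1 fell in each, beside 15.5%, 13.1% and 15.7%. Nfil3, a repressor, rose by 2.51 in het, 2.78 in PM and 2.41 in KO at 1 h, and Xbp1, of the unfolded protein response, by 1.65, 1.46 and 1.64. Cebpb rose by 1.23, 1.24 and 1.14 at 1 h, and Dbp, a clock-controlled gene, fell by 0.92, 0.71 and 0.84. At 4 h Xbp1 was 0.59 higher in KO than in het (adjusted p = 0.000929) and Nfil3 0.75 higher in PM than in KO (adjusted p = 0.0103).

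Of 30 genes of the MAP kinase pathways and the serum response 18 were tested, and 4 rose and 1 fell in het at 1 h (4 and 1 in PM, 4 and 2 in KO), beside the same shares of all genes, 12.7%, 10.3% and 12.4% rising and 15.5%, 13.1% and 15.7% falling. Those that rose in het were Map2k3, a kinase upstream of p38 (1.42, and 4.15 at 4 h), Rps6ka3, a kinase that phosphorylates CREB (1.12), Map3k1 (0.91) and Elk4, a partner of the serum response factor (at least 1.52-fold). Nras fell by 0.43. Map2k6, also upstream of p38, was not well above background at 4 h and was lower by at least 1.96-fold in het, 1.5-fold in PM and 1.91-fold in KO. At 4 h Mapk14, which encodes p38 alpha, fell by 1.51 in het and 1.06 in PM and was 1.38 higher in KO than in het (adjusted p = 5.87e-08). Of 9 genes from the antigen receptor to NF-kB 7 were tested, Malt1 among them. Bcl10 rose by 1.85, 1.65 and 1.73 in het, PM and KO at 1 h, and Prkcq, the protein kinase C of the T cell synapse, fell by 0.77, 0.68 and 0.81. Median differences of the 5 lists between genotypes ran from -0.22 to 0.20 at 0, 1 and 4 h, beside -0.01 to 0.02 over all genes.

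The 3 genes most like each member were found among 3350 other genes tested whose 9 group means span at least 1 log2 unit, by Pearson's r over those means. For Fosb they were Zfand2a, Ier5l and Tob2 (r 0.995 to 0.997), for Fos Selenon, Leng9 and Dusp10 (r 0.990 to 0.992), for Junb Gramd3, Hexim1 and Crebrf (r 0.993 to 0.995) and for Maff Tob2, Ndel1 and Serinc1 (r 0.995 to 0.999). Crem was closest to Nr4a3, Egr2 and Dusp16 (r 0.9955 to 0.996) and Atf3 to Birc3, Nr4a3 and Gabpb1 (r 0.980 to 0.991). Jund was closest to Prr7, Cebpb and Grb7 (r 0.980 to 0.986), Jun to Klf6, Crybg1 and Ddx6 (r 0.946 to 0.9545) and Batf to Cd226, Atp10d and Mt1 (r 0.896 to 0.941). Over the 36 arrays r was lower, at 0.38 to 0.47 for Jun and its 3, 0.076 for Batf and Mt1, 0.536 for Junb and Gramd3, and 0.59 to 0.97 for the other pairs. The points share the time course, so these are descriptions.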

How the data were processed

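Per the labels, RNA of mouse T cells was turned into biotinylated cRNA (Ambion MessageAmp) and hybridised to Illumina bead arrays, which were read with GenomeStudio 2011.1 per the submitters' processing notes. The deposited table gives a probe intensity without normalization and a detection p-value for each probe and array, per the file headers. The authors' processed table, also an intensity, was used as an alternative; its normalization is not given in the sources used here.

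From the signals, the background was corrected with normexp from the detection p-values, arrays were quantile normalized with an offset of 16, and log2 was taken (limma 3.58.1, R 4.3.3, statmod 1.5.0). Probes with a detection p under 0.01 on at least 4 of 36 arrays were kept (10961 of 25697), and the brightest probe stood for its gene (7585 genes). Of all probes 23978 have 1 gene symbol and 1719 have none. One linear model over the 36 arrays gave a mean per group, leaving 27 residual degrees of freedom, and limma p-values were Benjamini-Hochberg adjusted over all genes in each of 27 comparisons (9 between times, 9 between genotypes, 9 of differences in response) at 0.05. Fold changes are on the scale of log2 signal with the offset, which understates those of dim probes. The script was tested on simulated data.

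Arrays of the same replicate number deviated together: the median correlation of their deviations was 0.405 (-0.0718 to 0.827), against -0.132 between numbers. Numbers were taken as pairs where every pair of a comparison exceeded 0.1, which held in 12 of 18 comparisons, PM and KO against het at 4 h among them. No label says that a number marks a shared day or litter. The block within each time was chosen after seeing the data, as was leaving out the sets of arrays that stood apart. The genes described and the lists were chosen with earlier results of these data known. All 10 genes are named, with up to 5 rises and falls of each list that passed and the 3 most similar genes of each. Alternatives were another background correction, scaling, table, filter, probe rule, set of arrays, array weights and a replicate block, and leaving out each array or number.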

Additional observations from a re-analysis of the deposited data

Results flagged for a closer look

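In 9 of 81 sets of 4 arrays (a gene in a group) 1 array lay far from the other 3, by Dixon's test at 95%; chance gives about 5 percent of sets. Fosb at 0 h read 7.50 in het replicate 3 (others 4.29 to 4.67), 7.78 in PM replicate 3 (4.42 to 4.5) and 7.49 in KO replicate 3 (4.38 to 4.66), and at 1 h 8.86 in het replicate 1 (10.03 to 10.24). Jun read 5.04 in het replicate 2 at 4 h (6.22 to 6.36), 5.52 in KO replicate 2 at 4 h (6.34 to 6.50) and 6.23 in PM replicate 1 at 1 h (7.62 to 7.91). Atf3 read 5.89 in het replicate 2 at 1 h (8.92 to 9.16) and Crem 5.61 in PM replicate 4 at 0 h (4.89 to 4.99).

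Crem was lower in PM than in het at 1 h and higher at 4 h in every replicate number, the 1 h difference minus the 4 h difference being -1.16, and so it was against KO (-1.03). Read the other way, the step from 1 h to 4 h was 1.16 larger in PM than in het (adjusted p = 0.715 in the limma fit without a block, 0.00815 with a block for each replicate number within each time) and 1.03 larger than in KO (0.780 and 0.0166).

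For Atf3 that step was 1.86 larger in PM than in het (limma adjusted p = 0.870 and 3.81e-07) and 1.67 larger than in KO (0.984 and 2.06e-06). Its change from 0 h, where it was not above background, to 4 h was 1.88 larger in PM than in het (0.853 and 3.07e-07) and 1.45 larger than in KO (0.999 and 1.09e-05). The change of Jun from 0 h to 4 h was 1.14 larger in PM than in KO (0.999 and 0.0375). The smaller p-values rest on a block chosen after seeing the data. Numbers were not pairs by the rule used between PM and KO at 4 h or between PM and het at 0 h. For Atf3 these p-values also draw on the small spread of the 0 h arrays, where it was background.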

How the results depend on the processing

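Counts below are of the 9 genes passing. At 4 h against 0 h, without background correction 1 passed in het and 1 in KO, against 3. Between PM and het at 4 h, where none passed in the limma fit, 1 passed with the replicate block, 1 when arrays were weighted and 1 in a fit restricted to the compared groups; between KO and het, 1 passed with the replicate block and 1 with array weights. With the replicate block within each time the counts were 4 for PM against het, 3 for KO against het and 2 for PM against KO at 4 h, 1 and 2 for the 4 h response of PM against het and KO, and 2 and 2 for the step from 1 h to 4 h. That block gave 2 for PM against het with median scaling, and 4 (PM) and 3 (KO) against het with the authors' table. Without replicate 2 at 1 h the step gave 1 for PM against het and 1 against KO, and the Atf3 step in PM turned from 0.14 to -0.65. Leaving out arrays or numbers gave 6 to 7 at 1 h in each genotype, 2 to 3 (het), 3 to 4 (PM) and 3 to 4 (KO) at 4 h against 0 h, 6 to 8, 5 to 6 and 6 to 7 at 4 h against 1 h, 0 to 1 for PM against het and against KO at 4 h and for their 4 h responses and steps, and 0 elsewhere. Of 243 values for single genes, median scaling lost 10 calls, among them Jund at 1 h and 4 h in each genotype; no background correction lost 5 and no filter 5. It moved the median of all genes by -0.14, -0.29 and -0.30 at 1 h and by -0.12, -0.10 and -0.13 at 4 h in het, PM and KO. The replicate block added 4 calls, the other 2 being Maff at 4 h in PM (0.61, adjusted p = 0.0168) and Batf at 4 h in KO (-0.62, adjusted p = 0.0222), where numbers were not pairs by the rule; it changed no other call. The causes were not tested. Probes near background (Jund, Atf3 and Maff at 0 h or 4 h) limit what can be measured there, as does the number of arrays.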
